A study of Equus caballus with 4 samples.

Results

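A list of 10 genes that mark fibroblasts and other stromal cells was read as a check on the makeup of satellite cell cultures. The genes are *PDGFRA*, *PDGFRB*, *DCN*, *LUM*, *FBN1*, *FBLN1*, *VIM*, *THY1*, *S100A4* and *TCF7L2*. Their probes were taken by gene name and not by any measured ratio, but the list was chosen with earlier results of these data known. Of the 10 genes, 9 had probes under their gene name, with 21 of the 43603 probes of the array, printed as 25 of its 43803 non-control spots. All 21 probes passed the filter on dim probes, as did 27384 probes in all, which stood for 15545 genes or transcripts. *TCF7L2* had 1 probe, which the files name only in their description column, and it is given apart from the other 9.

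The cells were equine satellite cells, the stem cells of muscle fibres, from *m. semitendinosus* of colts aged 6 months. After 10 d of proliferation and 48 h of differentiation they received HMB (*β*-hydroxy-*β*-methylbutyrate, which the body makes from leucine) for 24 h, so that RNA was taken on day 3 of differentiation. The amount of HMB is given as 50 µM in the methods and as 50 µg in the labels, and the control cells stayed in differentiation medium without it. Each of 4 two-colour arrays on 1 slide carried HMB-treated cells in Cy5 and control cells in Cy3, and a description field of the labels calls the treated cells GO-treated where the titles say HMB. The labels call the arrays biological replicates but do not tie an array to a colt, so the tests below measure the spread between these 4 arrays. No array had the dyes swapped, and a dye bias of a probe cannot be told apart from a response to HMB. The methods include a preplating step, which lets quickly adhering fibroblasts settle out before the satellite cells are collected.

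Connective tissue cells of muscle lie between the fibres and make the collagens, proteoglycans and microfibrils around them. PDGF receptor *α* marks the fibro-adipogenic progenitors among them, which can become fibroblasts or adipocytes, and PDGF receptor *β* is also found on pericytes. Few of the 10 genes belong to fibroblasts alone, since vimentin is also made by dividing myoblasts.

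*PDGFRA*, the receptor for PDGF-AA and other PDGF dimers, was the 1 gene of the 9 that passed the test, and it rose. Over all genes tested 22.5% passed, 10.9% as higher and 11.6% as lower, beside 1 of 9 (11.1%) here. The probe of *PDGFRA* that stands for the gene here, and another probe nearer the 3′ end of the transcript both lay on chromosome 3 of EquCab1. The sequence of the former is shown because it stands for the 1 gene called, and its site is chr3:71551637-71551696 on the minus strand.

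*PDGFRA*: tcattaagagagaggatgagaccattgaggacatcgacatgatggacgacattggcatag

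In control cells this probe had processed intensities of 38.0, 35.2, 39.3 and 41.8 on arrays 1 to 4. In HMB-treated cells it had 81.0, 91.7, 108 and 191. Every treated value lay above every control value, and array 4 held the highest treated value while the control values stayed close together. The log2 ratios of HMB over control were 1.09, 1.38, 1.46 and 2.19, with a mean of 1.53 ± 0.47 (SD, n 4) and a 95% interval of 1.12 to 1.94. This is 2.89-fold, with a limma adjusted p of 0.00358. The other probe passed the filter through the treated samples alone, and no size or test is read from it. Its control intensities were 17.2 to 27.0, well above background on 3 of the 4 arrays, and its treated intensities were 65.4 to 129. Both probes were dim, at the 18.3 and 11.5 percentiles of brightness among tested probes. With another background correction (normexp with an offset of 50, then loess) the ratio of the first probe was 0.89, with an adjusted p of 0.0062. A one-sample test on the 4 ratios without limma's moderated variance gave an adjusted p of 0.0775. In RNA from whole cultures, more cells that carry *PDGFRA* and more of its RNA in each cell cannot be told apart.

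*PDGFRB*, the sister receptor, gave another picture on its 1 probe. Its control intensities were 147, 123, 114 and 116 and its treated ones 147, 113, 120 and 114. The groups overlapped on every side, and the log2 ratio was -0.014 ± 0.075 (SD, n 4) with a 95% interval of -0.16 to 0.14 and an adjusted p of 0.89.

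**Figure D1:**
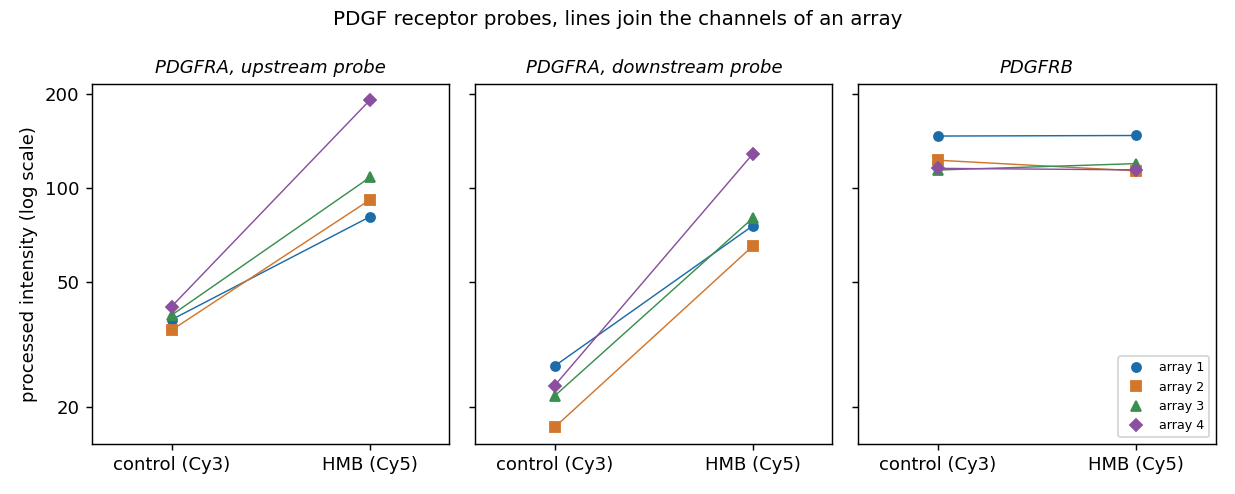
Processed intensities (log axis) of the 2 *PDGFRA* probes and the *PDGFRB* probe in control cells (Cy3) and HMB-treated cells (Cy5), with a line for each of 4 arrays. The lines of the upstream *PDGFRA* probe rise on all 4 arrays, from 38.0 to 81.0 on array 1 and from 41.8 to 191 on array 4. The *PDGFRB* lines stay between 113 and 147. The other *PDGFRA* probe passed the filter through the treated samples alone.

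Of the PDGF family around these receptors little could be read. Among 9 ligands and related receptors, 6 were below the filter (*PDGFB*, *PDGFD*, *CSF1R*, *FLT3*, *FLT1* and *KDR*) and no probe was found for *PDGFA*. The ligand *PDGFC* had a log2 ratio of -0.17 ± 0.065 (adjusted p = 0.0919), and the related receptor *KIT* had 0.19 ± 0.34 (adjusted p = 0.312).

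The other 8 genes did not pass the test, and 0 of them had an unadjusted limma p of 0.05 or lower. The one-sample test passed 0 of the 9 genes, and normexp with loess passed *DCN*, *VIM* and *S100A4* beside *PDGFRA*. The 8 adjusted p-values ran from 0.143 to 0.942.

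Decorin (*DCN*) and lumican (*LUM*) are small leucine-rich proteoglycans that bind collagen fibrils and set their spacing. The brightest *DCN* probe had 56018, 52058, 59312 and 70902 in control cells and 76503, 58369, 62640 and 66868 in treated cells. The groups overlapped, array 1 was the most raised and array 4 the only 1 with a lower treated value. Its log2 ratios were 0.45, 0.17, 0.079 and -0.085, with a mean of 0.15 ± 0.22 and an adjusted p of 0.286, and without array 1 the mean was 0.053. A second *DCN* probe, from another transcript record without coordinates in the files, is shown because it passed where the first did not.

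*DCN*: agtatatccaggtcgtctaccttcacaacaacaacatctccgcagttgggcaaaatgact

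Its control intensities were 1685, 1287, 994 and 406, and its treated ones 2513, 1697, 1315 and 456. Both channels were highest on array 1 and lowest on array 4, with 4.15-fold between the highest and the lowest control value, against 1.36-fold for the brighter *DCN* probe. The ratios were 0.58, 0.40, 0.40 and 0.17, higher on 4 of 4 arrays, with a mean of 0.39 ± 0.17 and an adjusted p of 0.0207. With both *PDGFRA* probes this made 3 of 21 probes called (14.3%), all higher, beside 22.8% of all tested probes (11.2% higher and 11.6% lower). Of these 3, the *PDGFRA* probe nearer the 3′ end passed the filter through the treated samples alone, and nothing is read from the share.

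The *LUM* probe nearest the 3′ end, printed as 5 spots, was flat. It had 15439 to 18232 in control cells and 15152 to 17437 in treated cells, and its log2 ratios were -0.027, 0.077, 0.043 and -0.064. The mean was 0.0071 ± 0.064 (adjusted p = 0.942), and the ratios of its 5 spots differed by an SD of 0.0084 to 0.021 within an array. The other 5 *LUM* probes lay 892 to 896 bases upstream in the transcript and overlapped, so they are close to repeats of 1 measurement. The first and the last are shown, with the 56 bases that all 5 share in capitals, at chr28:16774903-16774962 and chr28:16774907-16774966 on the minus strand.

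*LUM*, first: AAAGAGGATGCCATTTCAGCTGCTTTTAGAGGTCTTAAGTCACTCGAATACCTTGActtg
*LUM*, last: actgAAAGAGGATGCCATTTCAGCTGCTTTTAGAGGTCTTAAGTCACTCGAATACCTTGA

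These 5 probes gave 0.26 to 0.30 on array 1, 0.11 to 0.18 on array 2, -0.11 to -0.076 on array 3 and -0.90 to -0.85 on array 4. Array 4 stood apart from the other 3. Their control intensities were 1782 to 2529 on arrays 1 to 3 and 4000 to 4648 on array 4, while the treated intensities were 1984 to 2486 throughout. The means were -0.14 to -0.12, with adjusted p-values of 0.603 to 0.678.

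Fibrillin 1 (*FBN1*) forms the microfibrils on which elastic fibres are built, and fibulin 1 (*FBLN1*) is a secreted glycoprotein of the same matrix. The 3′ probe of *FBN1* had 41255 to 47625 in control cells and 35108 to 50233 in treated cells. Its log2 ratios were 0.083, -0.14, -0.082 and -0.44, with a mean of -0.14 ± 0.22 (adjusted p = 0.302), and array 4 was again the lowest. Without it the mean was -0.046. A pair of upstream probes of another *FBN1* transcript record share 30 bases, shown in capitals, at chr1:138693516-138693575 and chr1:138693486-138693545 on the plus strand.

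*FBN1*, first: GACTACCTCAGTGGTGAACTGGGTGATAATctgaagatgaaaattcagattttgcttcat
*FBN1*, second: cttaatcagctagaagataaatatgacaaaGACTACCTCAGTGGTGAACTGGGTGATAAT

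On array 4 they gave -0.97 and -0.93, and on the other arrays -0.12 to 0.15. Their means were -0.24 and -0.20 (adjusted p = 0.371 and 0.463). On array 4 the ratio of the upstream probes minus that of the 3′ probe was -0.81 for *LUM*, within 1 transcript record. Over 358 such records with tested probes at least 300 bases apart the median of this difference on array 4 was -0.022, with 10th and 90th percentiles of -0.42 and 0.51. The *LUM* difference was below the 10th percentile of that array. Outside that set were *S100A4* at -0.40, whose probes lie closer together, and *FBN1* at -0.51 and *DCN* at 0.25, whose probes belong to different records. No difference is given for *PDGFRA*, whose 3′ probe passed the filter through the treated samples alone.

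The *FBLN1* probe had 4350, 3689, 3770 and 3800 in control cells and 6327, 3947, 4025 and 4161 in treated cells. Array 1 was high in the treated cells and the other 3 arrays were alike. The log2 ratios were 0.54, 0.098, 0.094 and 0.13, higher on 4 of 4 arrays, with a mean of 0.22 ± 0.22 and an adjusted p of 0.143. Without array 1 the mean was 0.11.

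**Figure D2:**
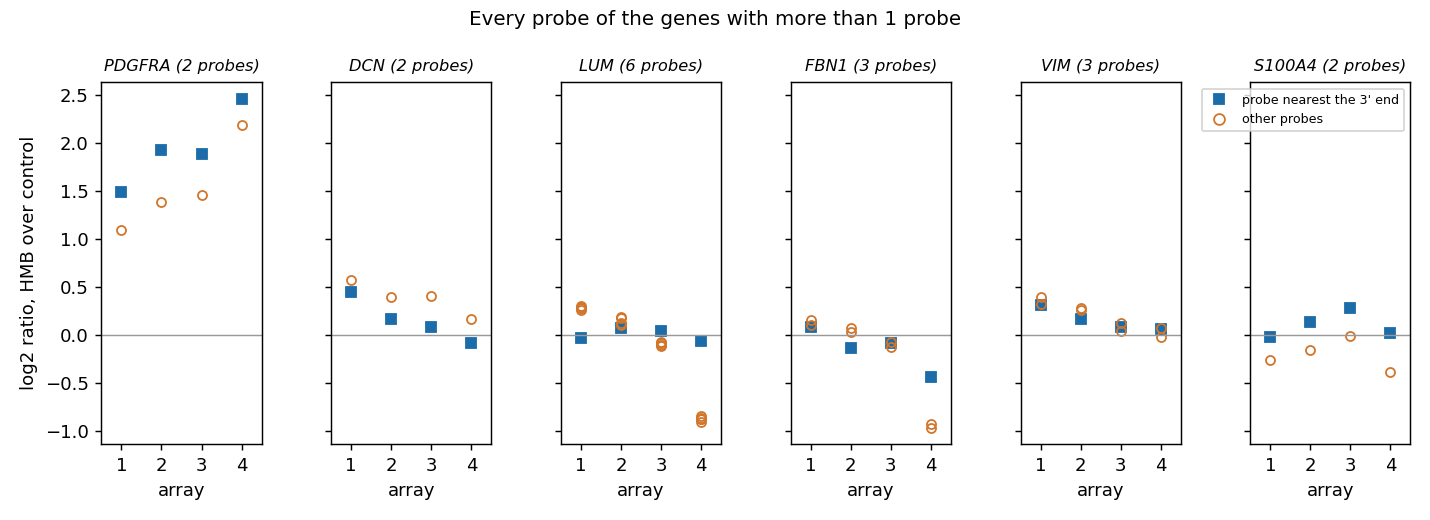
Log2 ratio of HMB over control (vertical axis) on each of 4 arrays (horizontal axis) for every probe of the 6 genes with more than 1 probe. Filled squares are the probe nearest the 3′ end and open circles the others. The upstream *PDGFRA* probe lies above 1 on all 4 arrays, and the upstream *LUM* and *FBN1* probes lie between -0.97 and -0.85 on array 4. The other *PDGFRA* probe passed the filter through the treated samples alone, and no size is read from it.

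Vimentin (*VIM*) is the intermediate filament of mesenchymal cells, and S100A4, also called fibroblast-specific protein, is a calcium-binding protein of motile cells. The brightest of 3 *VIM* probes had 64922, 56199, 65127 and 67033 in control cells and 80384, 63169, 69126 and 69744 in treated cells. Its ratios were 0.31, 0.17, 0.086 and 0.057, higher on 4 of 4 arrays by small amounts, and the groups overlapped. The mean was 0.16 ± 0.11 with an adjusted p of 0.149, and the other *VIM* probes, which overlap it or each other, gave 0.16 and 0.21 (adjusted p = 0.208 and 0.0873).

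The 2 *S100A4* probes differed in direction. The brighter, nearer the 3′ end, had log2 ratios of -0.026, 0.14, 0.28 and 0.016, with a mean of 0.10 ± 0.14 (adjusted p = 0.353) and overlapping groups. The other, at chrUn:82503400-82503459 on the minus strand, is shown because its groups did not overlap.

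*S100A4*: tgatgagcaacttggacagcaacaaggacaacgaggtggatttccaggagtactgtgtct

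It had 68475, 62979, 57717 and 67857 in control cells and 57327, 56685, 57337 and 52090 in treated cells. The ratio was below 0 on 4 of 4 arrays, with a mean of -0.20 ± 0.16 and an adjusted p of 0.114. Over all genes tested 16.3% had groups that did not overlap, and among the 9 genes, each by its brightest probe, *PDGFRA* was the 1 gene of this kind.

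*THY1*, a GPI-anchored surface protein of fibroblasts, had ratios of 0.17, -0.20, -0.28 and -0.11, with array 1 apart in sign. The mean was -0.10 ± 0.20 (adjusted p = 0.426). *TCF7L2*, the WNT-responsive factor that marks fibroblasts of muscle connective tissue, had 456 to 523 in control cells and 517 to 693 in treated cells. Its ratios were 0.60, 0.29, 0.25 and -0.016, with a mean of 0.28 ± 0.25 (adjusted p = 0.0968). Array 4 was the only 1 without a higher treated value, and without that array the mean was 0.38 with an adjusted p of 0.0437. Without array 1 it was 0.18 with an adjusted p of 0.2.

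The ratios above contain lowess, a fit of ratio against brightness that the authors' software took out of each array. Without it, with each array centred on its median, 7 of the 9 genes passed the test and all 7 were higher. These were *PDGFRA*, *DCN*, *LUM*, *FBN1*, *FBLN1*, *VIM* and *S100A4*. Over all genes 27.2% passed without lowess, 15.1% as higher. *DCN* went from 0.15 to 0.92 ± 0.051 (adjusted p = 0.000617), with 0.91, 0.92, 0.99 and 0.87 on the arrays. *VIM* went from 0.16 to 0.95 ± 0.11 (adjusted p = 0.000664) and *S100A4* from 0.10 to 1.01 ± 0.32 (adjusted p = 0.00228). *FBN1* changed sign, from -0.14 to 0.46 ± 0.12 (adjusted p = 0.00663), as did 13.9% of all genes. *LUM* became 0.30 ± 0.16 (adjusted p = 0.0385) and *FBLN1* 0.35 ± 0.16 (adjusted p = 0.0244). *PDGFRA* moved little, from 1.53 to 1.47, and *PDGFRB* and *THY1* stayed near 0 at -0.045 and -0.071.

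**Figure D3:**
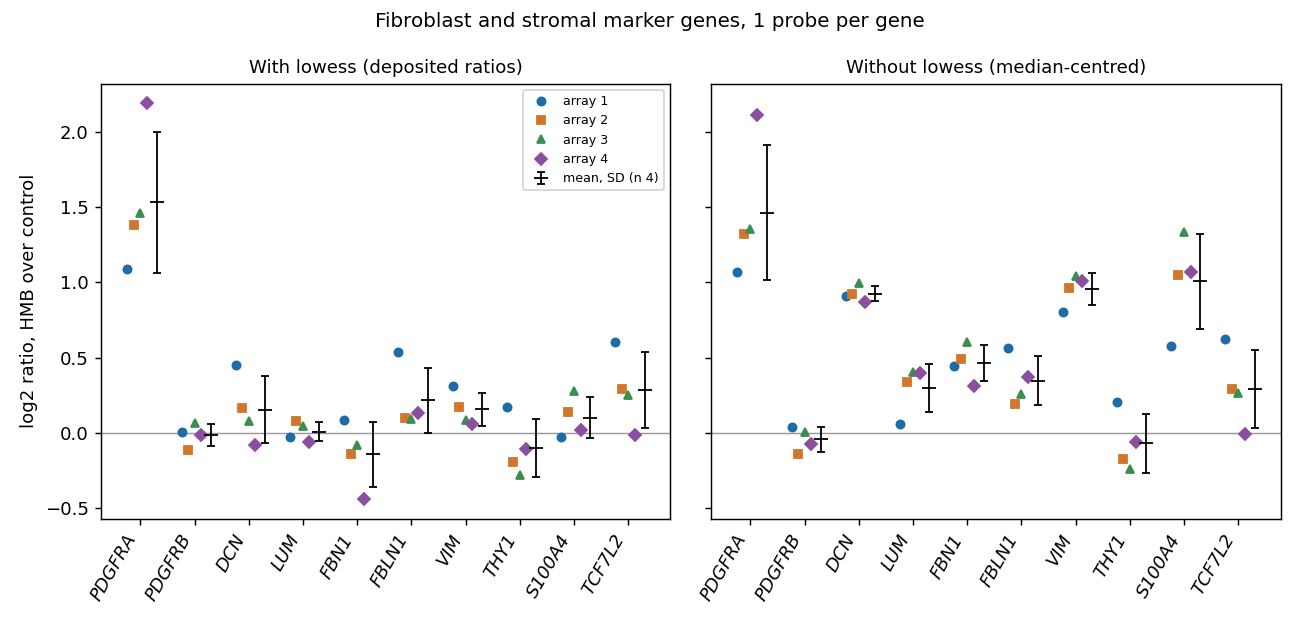
Log2 ratio of HMB over control for each of the 10 genes by its brightest probe, with lowess (left) and without it (right). Symbols are the 4 arrays and bars the mean with its SD. *PDGFRA* is above 1 on all 4 arrays in both panels, whereas *DCN*, *VIM* and *S100A4* are near 0 on the left and have means of 0.92 to 1.01 on the right.

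The genes whose ratios moved most were bright. The probes of *DCN*, *FBN1*, *VIM* and *S100A4* lay at the 97.7 to 99.4 percentiles of brightness among tested probes and fell in the brightest of 50 equal classes of genes. In that class of 311 genes the median ratio without lowess was 0.68, with 10th and 90th percentiles of 0.24 and 1.13, and with lowess it was -0.034. The 4 genes thus lay within the 10th to 90th percentile of genes as bright as they are, with *FBN1* under the median of the class. *FBLN1*, in a class with a median of 0.14 without lowess, and *LUM*, in one with 0.24, were nearer to theirs. *PDGFRA*, in a class with a median of -0.039 and a 90th percentile of 0.30, was above that range both with and without lowess. Whether the rise of bright probes comes from the dyes or from the cells cannot be told apart with 1 dye orientation.

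**Figure D4:**
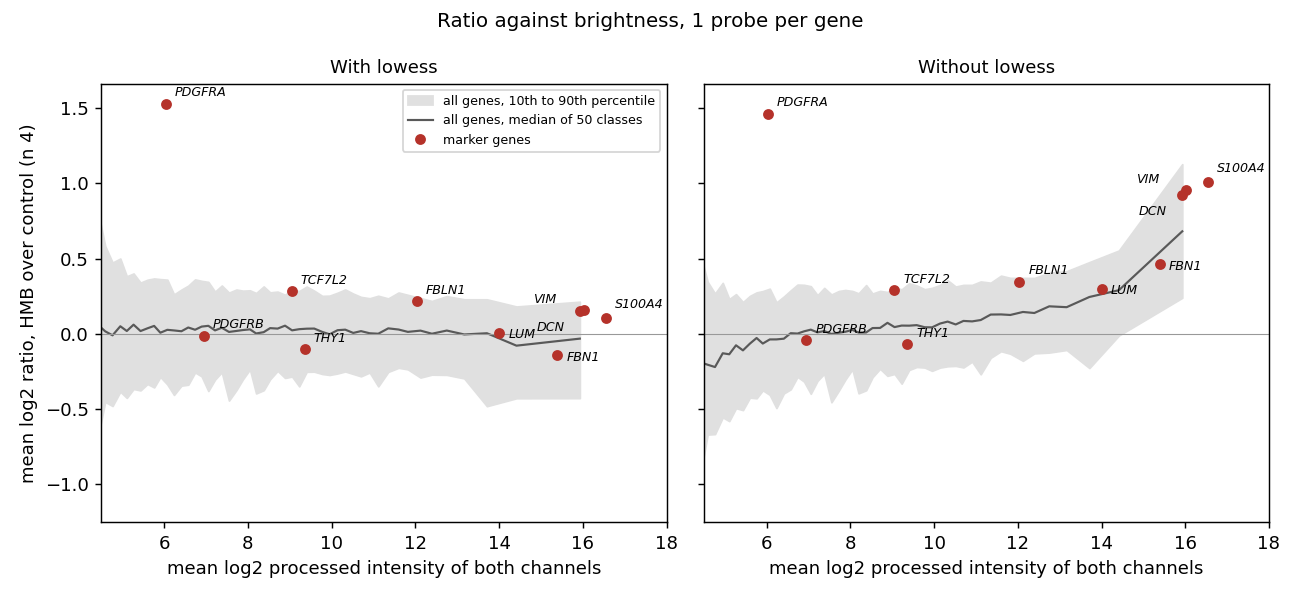
Mean log2 ratio (n 4) against mean log2 processed intensity of both channels, with lowess (left) and without it (right). The line is the median and the band the 10th to 90th percentile of all 15545 genes in 50 classes of brightness, drawn at each class's median brightness, and red points are the 10 marker genes. Without lowess the line climbs to 0.68 in the brightest class and *DCN*, *VIM*, *S100A4* and *FBN1* climb with it, while *PDGFRA* keeps its distance.

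Further genes of the same families were read by the same test. Of 12 other small leucine-rich proteoglycans, which order collagen fibrils, 11 were tested, 5 were called lower and 0 higher, beside 11.6% lower and 10.9% higher over all genes. One of the 5, *EPYC*, passed the filter through the control samples alone. The median log2 ratio was -0.46 against 0.018 over all genes. On arrays 1 to 4 the list medians were -0.3937, -0.2847, -0.2283 and -1.0015, all below 0 but uneven, with array 4 the lowest. The value of -0.46 is the mean of *ASPN*, which was not called. Its ratios were 0.0115, -0.0268, 0.2122 and -2.0203, so that its fall came from array 4. Fibromodulin (*FMOD*) had -0.66, -0.77, -0.80 and -1.47 on the 4 arrays, a mean of -0.92 ± 0.37 (adjusted p = 0.00796). *ECM2* fell by 0.69 ± 0.52 (adjusted p = 0.0436), *PODN* by 0.65 ± 0.28 (adjusted p = 0.0125) and *OGN* by 0.62 ± 0.47 (adjusted p = 0.0445). The treated channel of *EPYC* was well above background on 1 of the 4 arrays, and no size is given for it. Without lowess these 5 and *PRELP* were lower, and biglycan (*BGN*), the close relative of decorin, was higher at 1.13 against 0.11 with lowess.

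Of 19 genes of fibrillins, fibulins and elastic fibres, 17 were tested, with 2 higher, 3 lower (29.4% called, beside 22.5% over all genes) and a median of -0.0035. *HMCN1*, hemicentin 1, had 0.94, 0.96, 0.68 and 0.91, a mean of 0.87 ± 0.13 (adjusted p = 0.00156), and the microfibril gene *MFAP2* had 0.30 ± 0.18 (adjusted p = 0.0462). The lysyl oxidases *LOXL2* and *LOXL1*, which cross-link collagen and elastin, fell by 0.61 and 0.43, and *EFEMP2*, fibulin 4, by 0.50. These 3 were not past the threshold without lowess, where 2 of the 17 were higher and 0 lower.

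Of 17 other S100 genes 10 were tested and 3 called (30.0%), and of 15 TCF/LEF factors and WNT targets 9 were tested and 3 called (33.3%), beside 22.5% over all genes. *S100A6* (0.33 ± 0.12, adjusted p = 0.0227) and *S100A10* (0.30 ± 0.096, adjusted p = 0.024) rose, and *S100A1*, the member typical of striated muscle, fell by 0.71 ± 0.38 (adjusted p = 0.019). Without lowess *S100A6* stood at 1.34 and *S100A10* at 0.68, and 3 genes were higher and 1 lower. The secreted WNT antagonist *DKK1* had 0.87, 1.58, 1.39 and 2.06, a mean of 1.48 ± 0.49 (adjusted p = 0.0044), and *β*-catenin (*CTNNB1*) fell by 0.26 ± 0.14 (adjusted p = 0.0483, but 0.17 and not called without lowess). The third call, *NKD2*, passed the filter through the control samples alone, its treated channel being well above background on 3 of the 4 arrays, and no size is given for it. *TCF7* and *LEF1* were among the 5 below the filter.

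Falls outnumbered rises in a wider list of 32 fibroblast and fibro-adipogenic progenitor genes. Of its 28 tested genes 1 rose and 9 fell, beside 10.9% higher and 11.6% lower over all genes. Its median was -0.23, with 0.11, -0.21, -0.23 and -0.58 on arrays 1 to 4, so that array 1 went the other way. The gene that rose was *FAP*, a surface protease of activated fibroblasts, at 0.42 ± 0.18 (adjusted p = 0.0185). The falls were led by *SERPINF1* at -0.78 ± 0.37 (adjusted p = 0.0131) and *SMOC2* at -0.70 ± 0.43 (adjusted p = 0.0253), and they included *SPARC* (-0.67) and the inhibitors *TIMP2* (-0.70) and *TIMP3* (-0.62). Of its collagen chains *COL5A1* fell by 0.31 ± 0.10 (adjusted p = 0.022), and *COL1A1* (-0.54 ± 0.64), *COL1A2* (-0.20 ± 0.28) and *COL3A1* (-0.21 ± 0.43) did not pass. Neither did *COL5A2* (-0.25) and *COL15A1* (-0.11), nor the collagen VI chains *COL6A1* (0.13), *COL6A2* (0.21) and *COL6A3* (0.19), which lay above 0. Without lowess the list turned, with 10 higher, 5 lower and a median of 0.13, beside 15.1% higher and 12.1% lower over all genes. *SPARC* then stood at 0.32, *COL3A1* at 0.75 and *TIMP2* at 0.16, the last not called, and *COL5A1* lost its call at -0.22. *FAP* (0.57), *SERPINF1* (-0.55) and *SMOC2* (-0.70) kept their direction and their calls.

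Genes of other cells were read beside them. Of 36 myogenic and muscle genes, 33 were tested, 30 fell and 0 rose, beside 11.6% lower and 10.9% higher over all genes, with medians of -0.33, -0.78, -0.97 and -1.15 on arrays 1 to 4 and -0.84 over the arrays. One of the 30, *MYH2*, passed the filter through the control samples alone, with a treated channel well above background on 2 of the 4 arrays. The myosin *MYH8* fell by 1.93 ± 0.36 (adjusted p = 0.00113), and *DES*, desmin, fell by 0.98 ± 0.37. Without lowess 28 were lower and 1 higher, the cardiac actin *ACTC1*, which went from -0.38 to 0.69 and was called both times, and the median was -0.59. *PAX7*, a marker of resting satellite cells, *PAX3* and *MYH1* were below the filter, while *MYOD1*, *MYF5* and *MYOG* were above it. The median of the 9 markers minus that of the muscle genes was 0.50, 0.88, 1.05 and 1.14 on the arrays, a mean of 0.89 ± 0.28, and 1.11 ± 0.20 without lowess. For the wider fibroblast list it was 0.58 ± 0.12 with lowess and 0.73 ± 0.14 without. Both differences were above 0 on all 4 arrays under either setting. The summed intensity of the tested muscle genes was 544550 to 641630 in control cells and 305590 to 428820 in treated cells. That of the 10 markers was 256410 to 306780 in control cells and 275120 to 337120 in treated cells. The marker sum was higher in treated cells on arrays 1 to 3 and lower on array 4 (293660 against 306780 in control cells). These sums are of intensities after lowess and lean on the brightest probes, among them *ACTC1*, *MYH3* and *MYH7*. Without lowess the ratio of *MYH3* went from -1.11 to -0.37 and that of *MYH7* from -1.15 to -0.54.

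Markers of most other cells were too dim to read. Below the filter were 8 of 10 endothelial markers, *PECAM1*, *CDH5* and *VWF* among them, 7 of 10 leukocyte markers, 7 of 8 adipocyte markers, *ADIPOQ*, *PPARG* and *PLIN1* among them, and 6 of 8 Schwann and tendon markers. The leukocyte gene *PTPRC*, whose probe was named by the description column, rose by 0.28 ± 0.13 (adjusted p = 0.0374). *CD14* had 0.02 and *CD68* -0.29, neither past the threshold. The tendon factor *SCX* fell by 0.92 ± 0.21 (adjusted p = 0.00261). Summed over the tested leukocyte genes the intensity was 14946 to 17167 in control cells and 16549 to 22094 in treated cells. This sum is of intensities after lowess and leans on *PTPRC*, with 9967 to 12331 in control cells and 11510 to 15753 in treated cells. Of 11 pericyte and smooth muscle genes 8 were tested. *MYH11*, *NOTCH3* and *MCAM* passed the filter through the control samples alone, their treated channels being well above background on 3, 3 and 2 of the 4 arrays, and no fall is read from them. Of the other 5 *DES*, also counted as a muscle gene, was called lower. The summed intensity of these 8 was 81980 to 92490 in control cells and 41759 to 74804 in treated cells, with *RGS5*, *ABCC9* and *KCNJ8* below the filter. This sum holds *MYH11*, *NOTCH3* and *MCAM*, is of intensities after lowess and leans on bright probes. Among these is *TAGLN*, whose ratio went from -0.49 to 0.055 without lowess, and no fall is read from the sum. The part of any cell type in the *PDGFRA* ratio was not tested.

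**Figure D5:**
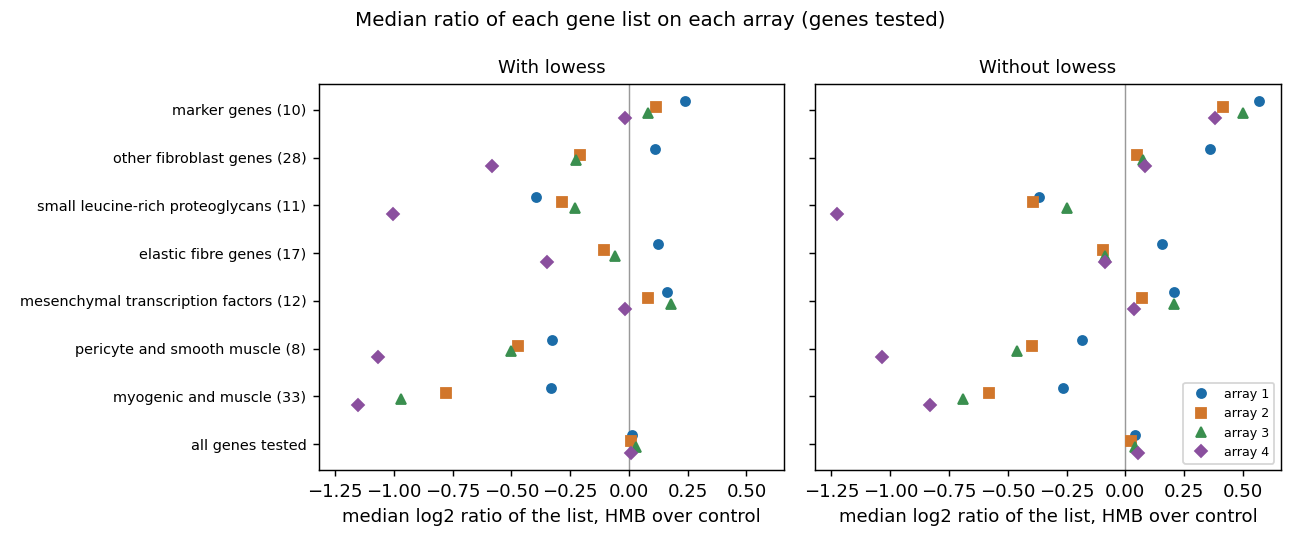
Median log2 ratio of HMB over control in each gene list on each of 4 arrays, with lowess (left) and without it (right), and over all tested genes in the last line. The number of tested genes stands in brackets. The muscle medians are below 0 on all 4 arrays in both panels, and those of the 10 markers move from between -0.016 and 0.24 to between 0.38 and 0.57.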

How the data were processed

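RNA of HMB-treated (Cy5) and control (Cy3) cells was compared on 4 arrays. The authors scanned them with Feature Extraction, version 10.10.1.1 per the file headers, with coordinates on EquCab1. The deposited log10 ratios contain lowess, and the deposited series table holds the same log10 values (largest difference 0). The other deposited columns used are intensity (processed, background-subtracted, mean and background) and marks of 0 or 1.

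Ratios were multiplied by 3.32 to log2. The 1417 control spots and 11 to 32 marked spots of an array were left out, no spot was saturated, and repeated spots were averaged. Tested probes had 1 channel clearly over background on each of the 4 arrays and at least 3 ratios. limma 3.58.1 (R 4.3.3) tested the mean ratio, two-sided, with Benjamini and Hochberg adjustment across these probes (threshold 0.05), and was tested on simulated data. The brightest tested probe stood for a gene. Of the tested probes, 48 took their gene symbol from the description column and 347 from reference (RefSeq) transcripts. Ratios without lowess were centred on the array median, which removed 0.49 to 1.32. The closing section gives the other alternatives. Figures were drawn with matplotlib 3.10.9.

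All probes of the members are named, and of each other list up to 2 of its largest rises and falls past the threshold, while further genes were named after their values were seen. Members and lists were chosen with earlier results of these data known. The number of arrays limits the precision.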

Additional observations from a re-analysis of the deposited data

Results flagged for a closer look

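Of 22 probes (the 21 of the 9 genes and that of *TCF7L2*) examined for an array far from the other 3, 1 stood out. On the *FBLN1* probe array 1 had a log2 ratio of 0.54, against 0.094 to 0.13 on the other arrays, and the gap to its neighbour was 0.917 of the whole range, above Dixon's critical value at the 95% level for 4 samples. Chance gives about 1 such value in 20 groups.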

How the results depend on the processing

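*PDGFRA* was higher under all 15 alternatives (0.89 to 1.74). Those that changed only the test or the filter kept its ratio of 1.53, so their direction could not differ. It lost its call under a one-sample test without moderated variance (adjusted p = 0.0775). The value of 1.74 averages in the probe that passed the filter through the treated samples alone. The number of the 9 genes called was 1, but 7 without lowess, 4 with normexp and loess and 0 with the one-sample test, and it was 1 without any single array. The count of all probes called was 6257, against 768 by the one-sample test, 3690 with no filter on dim probes and 2564 to 4981 without any single array, the lowest being without array 2 and the next, 2729, without array 3. With the channels fitted separately and the array as replicate block the count was 6257, a repeat of the main values and not a further check. With no replicate block it was 2226, and *PDGFRA* was called in both. The median of the 10 genes was 0.13, 0.40 without lowess and 0.079 to 0.16 without any single array. That of the wider fibroblast list was -0.23, 0.13 without lowess and -0.36 to -0.17 without any single array, and that of the muscle genes -0.84, -0.59 without lowess and -0.997 to -0.685 without any single array.

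Signs turned for *FBN1* without lowess (0.46), for *LUM* with normexp and loess (-0.040), with all its probes averaged (-0.11) and without array 2 (-0.016) or 3 (-0.0049), with a range of -0.016 to 0.031 without any single array, for *PDGFRB* without array 2 (0.019, in a range of -0.041 to 0.019) and for *S100A4* with its probes averaged (-0.050). Of 150 values of single genes under alternatives, 133 kept direction and side of the threshold. This share is no measure of robustness, since alternatives that changed only the test or the filter kept the ratio and so its direction. The series table and the fit with the array as block also repeated the adjusted p-values. Without array 3 *S100A4* was 0.042 and *THY1* -0.044, and *THY1* was -0.19 without array 1, none of them called. The cause of these shifts was not tested. Of the 15 alternatives, normexp with loess moved the dim *PDGFRA* probe the most (0.89).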

Other observations

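Of 12 tested mesenchymal transcription factors 2 rose, *GLI1* at 0.47 ± 0.20 (adjusted p = 0.0169) and *TBX18* at 0.35 ± 0.072 (adjusted p = 0.0134), and 1 fell, *ZEB2* at -0.47 ± 0.096 (adjusted p = 0.00662). These 3 are 25.0% of the 12, beside 22.5% over all genes. *PRRX1* and *OSR1*, factors of connective tissue progenitors, had 0.11 and 0.23 and did not pass.

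Of 7 tested genes for other intermediate filaments and their partners 4 were called (57.1%), and of 6 tested surface proteins of mesenchymal cells 2 (33.3%), beside 22.5% over all genes. These counts hold *PRPH* and *MCAM*, which each passed the filter through 1 group alone, and nothing is read from the shares. *LMNB1*, a lamin of the nuclear envelope, rose by 0.63 ± 0.24 (adjusted p = 0.00985). *PRPH*, peripherin, was not well above background in any control sample and was so in all 4 treated samples, and no size is given for it. *NES*, nestin, had -0.55, -1.19, -0.90 and -1.03 on the 4 arrays, a fall by 0.92 ± 0.27 (adjusted p = 0.00426), beside the fall of desmin. Of the surface proteins *ALCAM* rose by 0.67 ± 0.16 (adjusted p = 0.00414), and *MCAM* was well above background in all control samples and in 2 of the 4 treated samples. The calls on *LMNB1*, *NES*, *DES* and *ALCAM* were also made without lowess, in the same direction.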
